A study of Homo sapiens with 48 samples.

Results

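OTX2 was read by 3 of the 1113 probes of a targeted RNA panel, which covered 452 genes in all, and its probes were taken as every probe that the deposited count table labels with that symbol. Levels were followed across 48 libraries in 6 groups, all of the WA09 (H9) human embryonic stem cell line, with no genetic change listed. The gene was chosen by its measured counts: earlier readings of these data showed it high in both the neural and the endoderm cultures. Therefore its levels and fold changes are given as a description, with no test. The untreated stem cells (hESC) gave 4 libraries. Another 4 came from ectoderm made in E6 medium over 6 days with 100 nM LDN-193189, a BMP receptor inhibitor, and 2 µM A83-01, an inhibitor of the TGF-beta, activin and nodal receptors. Mesoderm and endoderm, with 4 libraries each, were made with the STEMdiff Mesoderm Induction Medium and the STEMdiff Definitive Endoderm Kit over 5 days. The embryoid bodies, aggregates grown in suspension, were plated at 20000 dissociated cells per well and kept for 7 days in E6 medium. In their first 24 hours 16 of them (CEPT EB) received CEPT, a survival cocktail of chroman 1, emricasan, polyamines and trans-ISRIB, and the other 16 (Y27 EB) received Y-27632, a kinase inhibitor used to aid cell survival after dissociation. Both embryoid body groups therefore carried a survival treatment and neither was untreated. The labels do not say whether an embryoid body library holds a single body, or whether replicates were separate cultures, so the spread between libraries may be technical.

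OTX2 encodes a homeodomain transcription factor of the paired class that binds DNA at bicoid-type sites. In the embryo it is known for specifying the forebrain and midbrain, where it meets GBX2 at the midbrain-hindbrain border. It also acts in the anterior visceral endoderm and anterior mesendoderm, which pattern the head, and later in the retina, pineal gland and choroid plexus. Pluripotent cells of the primed state, such as human embryonic stem cells, also express it.

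The gene (ENSG00000165588.16) lies on the minus strand of chr14:56799905-56810479 in GRCh38, and GENCODE 29 gives it 7 transcripts. RefSeq gives it 2 start sites, at 56810479 and at 56805667, 4812 bases apart. Probe 948 is labelled as position 276 of the RefSeq transcript NM_001270524, and probe 950 as position 2218 of the same transcript. Probe 949 is labelled as position 2069 of NM_001270525. If RefSeq and the paired GENCODE transcripts begin at the same base, probe 948 falls in exon 1 of ENST00000555006.5, in the 5′ UTR, at position 56810173. That base lies between the 2 start sites and is held by 4 of the 7 GENCODE transcripts, all of which begin at or near the upstream start. On the same assumption probe 949 falls in the 3′ UTR, in exon 5 of ENST00000339475.9, at position 56800837. Position 2218 lies beyond the end of the 1279-base GENCODE transcript paired with probe 950, whose coding part ends at its last base. The probe sequences were not used here, so whether the pseudogenes OTX2P1 and OTX2P2 share reads with these probes was not assessed.

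The 250 bases before each start are shown because probe 948 lies downstream of the first of them and upstream of the second. They are from RefSeq (GRCh38.p14, minus strand, written 5′ to 3′), and capitals mark a CCAAT box, read on either strand. The upstream start window is chr14:56810480-56810729 and the downstream start window is chr14:56805668-56805917.
Upstream start: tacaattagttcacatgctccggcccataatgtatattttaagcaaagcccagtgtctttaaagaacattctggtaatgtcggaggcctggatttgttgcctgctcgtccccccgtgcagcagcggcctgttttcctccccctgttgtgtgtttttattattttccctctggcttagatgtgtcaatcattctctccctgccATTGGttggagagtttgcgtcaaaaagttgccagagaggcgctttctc
Downstream start: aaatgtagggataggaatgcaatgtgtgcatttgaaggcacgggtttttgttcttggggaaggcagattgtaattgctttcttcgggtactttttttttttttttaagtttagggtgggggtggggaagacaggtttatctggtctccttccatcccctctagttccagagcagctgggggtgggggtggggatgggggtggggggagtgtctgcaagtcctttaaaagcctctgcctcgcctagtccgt
The CCAAT motif occurred 1 time in the upstream window and 0 times in the downstream window, and 32% of 34943 promoter windows of this length hold it. Neither window held TAATCC, the bicoid-type site that OTX2 itself binds (5.6% of windows). The same was true of TGTTTA for FOXA factors (11%), CATTGT for SOX factors (9.3%), ATGCAAAT for POU factors (1.6%), TGATAA for GATA factors (6.7%) and the TATA box TATAAA (10.8%). The CCAAT and TATAAA motifs were added to the other 5 after these sequences had been read. All motifs were searched on both strands, and the absence says only that these letters are not in these windows.

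Library totals ran from 379810 to 5577868 reads, with a median of 3583316. Replicate 15 of Y27 EB had the lowest total and held only 3 OTX2 reads, and replicate 13 of CEPT EB was the lowest of its arm at 1814266 reads. Some genes of each labelled fate were high in that group, and others were not. NANOG, a pluripotency factor, averaged 2233 CPM (reads scaled to a common library size, with TMM factors) in hESC and 0.116 in ectoderm. FEZF1 and PAX6, forebrain regulators, averaged 2406 and 940 CPM in ectoderm. SOX17 averaged 2730 CPM in endoderm, and the mesoderm gene T (brachyury) 2000 CPM in mesoderm. POU5F1 was low even in hESC, at 9.69 CPM. TDGF1, listed with the pluripotency genes, was higher in endoderm (8427 CPM) than in hESC (2781). KDR, listed with the mesoderm genes, was lower in mesoderm (25.4 CPM) than in hESC (285). The embryoid bodies held the neuronal genes TUBB3 (10912 CPM after CEPT and 12016 after Y-27632) and NEUROD1 (1881 and 2442) and the neural crest gene SOX10 (1176 and 1549).

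OTX2 was highest in endoderm and next highest in ectoderm. Summed over its 3 probes it stood at 1556, 1389, 1438 and 1738 CPM in the 4 endoderm libraries, a mean of 1530 ± 155 (SD, n = 4). The 4 ectoderm libraries gave 429, 431, 483 and 431 CPM, a mean of 444 ± 26.3 (SD, n = 4). Every endoderm library was above every ectoderm library, and the ratio of the means was 3.45.

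In the stem cells it was present at a low level. The hESC libraries gave 27, 38.8, 36.5 and 29.3 CPM (32.9 ± 5.65, SD, n = 4), from 52 to 93 reads each. Mesoderm was the lowest group, with 14.3, 14.3, 13.3 and 13.9 CPM (14 ± 0.482, SD, n = 4), from 28 to 43 reads each. No mesoderm library reached the lowest hESC library, although these counts are small.

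Both embryoid body arms were far below the directed ectoderm. CEPT EB libraries ran from 51.8 to 159 CPM with a median of 74.9 (mean 85.4 ± 31.1, SD, n = 16). Y27 EB libraries ran from 6.44 to 89.2 CPM with a median of 39.3 (mean 39.7 ± 22.3, SD, n = 16). All 16 CEPT EB libraries were above the Y27 EB median, 4 were above the highest Y27 EB library, and 13 Y27 EB libraries were below the lowest CEPT EB library. The 2 arms therefore overlapped but were shifted.

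Summed over the 3 probes, the order of the group means was endoderm, ectoderm, CEPT EB, Y27 EB, hESC and mesoderm. Neighbours in that order did not overlap, except CEPT EB with Y27 EB and Y27 EB with hESC. At probe 950 alone hESC (25.2 CPM) stood above Y27 EB (21.2 CPM). At probe 949 ectoderm also overlapped CEPT EB, and hESC overlapped mesoderm. The summed order was the same with each of the 4 other scalings tried. The levels themselves moved by more than 1.5 times in some groups. Endoderm averaged 986 CPM when library totals alone set the scale, and hESC 14.1 and mesoderm 9.23 CPM when reference genes set it. LEFTY2 alone averaged 430514 CPM in endoderm, and its part in the scaling was not tested. In bulk lysates such as these, fewer OTX2-expressing cells and less OTX2 RNA per cell cannot be told apart.

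**Figure D1:**
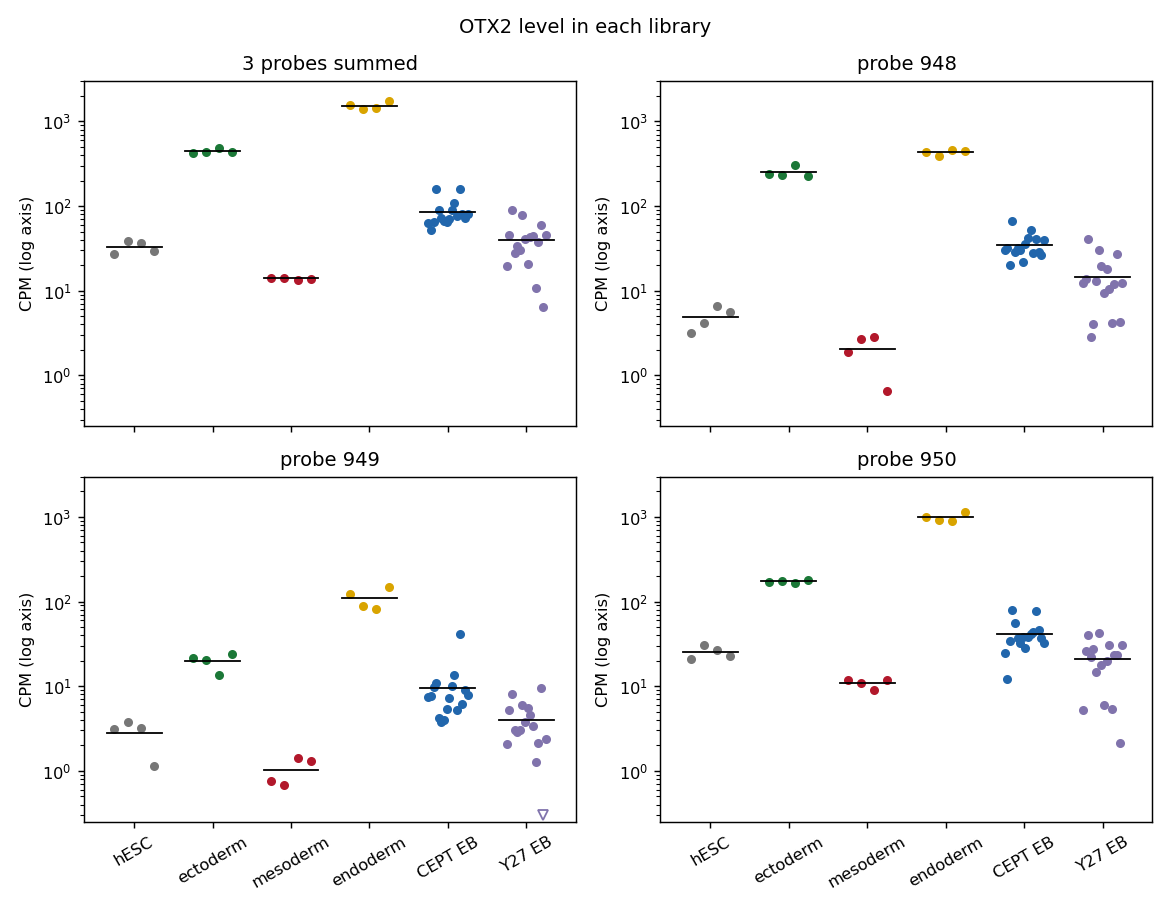
OTX2 in each of the 48 libraries by group, for the 3 probes summed and for each probe, in CPM on a log axis. Points are libraries, bars are group means, and the open triangle is a library with 0 reads of probe 949. The 4 endoderm libraries (1389 to 1738 CPM summed) sit above the 4 ectoderm libraries (429 to 483), and the 2 groups lie closer together at probe 948 than at probes 949 and 950.

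The 3 probes did not share the reads in the same proportion in every group. Probe 948, the one nearest the 5′ end, took 56.3% ± 4.37 (SD, n = 4) of OTX2 reads in ectoderm and 28.5% ± 2.66 (SD, n = 4) in endoderm. Its share was 55.3, 54.4, 62.7 and 52.8% in the ectoderm libraries and 28.2, 27.8, 32.1 and 25.8% in the endoderm libraries. The 2 groups did not overlap. In hESC the share was 11.5, 10.8, 17.9 and 19.2% and in mesoderm 13.2, 19.0, 21.4 and 4.65%, so these 2 groups overlapped each other and stayed below endoderm. The mesoderm shares rest on 2 to 8 reads of probe 948 a library.

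Probe 950 took most of the rest. Its share averaged 76.7% in hESC, 77.9% in mesoderm, 64.4% in endoderm and 39.2% in ectoderm. Probe 949 was the weakest in every group by mean share, between 4.53% in ectoderm and 10.6% in CEPT EB. A share compares counts of probes that may differ in capture, so its level says nothing of transcript abundance, while its change between groups does not depend on the scaling of the libraries.

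Set as a ratio of reads, probe 948 to probe 950 stood at 1.45 ± 0.247 in ectoderm (SD, n = 4) and 0.444 ± 0.0527 in endoderm (SD, n = 4). It was 0.195 ± 0.0606 in hESC and 0.195 ± 0.113 in mesoderm (SD, n = 4 each). Probe 948 exceeded probe 950 in 4 of 4 ectoderm libraries and in 0 of the 12 other directed or untreated libraries. In the embryoid bodies it did so in 6 of 16 CEPT EB and 6 of 16 Y27 EB libraries, and the mean ratios were 0.97 ± 0.516 and 0.903 ± 0.628 (SD, n = 16 each). The 6 in Y27 EB include replicate 15, with 2 reads against 1, and replicate 3, with 204 against 202. The Y27 EB mean ratio also includes replicate 15.

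**Figure D2:**
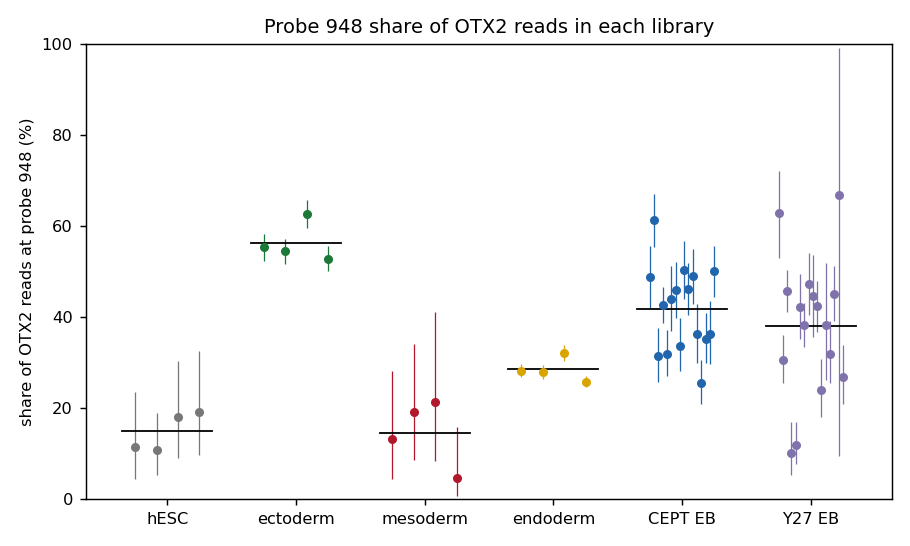
Share of OTX2 reads that came from probe 948 in each library, in percent. Points are libraries with exact 95% binomial intervals, which cover counting error only, and bars are group means. Ectoderm (52.8 to 62.7%) lies above endoderm (25.8 to 32.1%), and the embryoid body libraries spread from 10.0 to 66.7%.

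Between embryoid body libraries the share covered a wide range. Replicates 4 and 5 of Y27 EB had 12 of 120 and 24 of 204 OTX2 reads at probe 948, or 10.0% (exact 95% binomial interval 5.27 to 16.8) and 11.8% (7.69 to 17). Replicate 1 of the same arm had 66 of 105, or 62.9% (52.9 to 72.1). The 66.7% of replicate 15 comes from 2 of 3 reads and has an interval of 9.43 to 99.2%. In CEPT EB the share ran from 25.4% in replicate 13 (interval 20.9 to 30.5) to 61.3% in replicate 2 (55.4 to 67.1). Probe reads were amplified without molecular identifiers, so all these intervals cover counting error alone.

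Ectoderm was compared with hESC to see what neural induction does to the gene. Here OTX2 differed by a log2 fold change of 3.94 ± 0.10 (SE), 444 against 32.9 CPM. By probe the log2 fold change was 5.79 ± 0.21 at probe 948, 2.86 ± 0.30 at probe 949 and 2.85 ± 0.13 at probe 950. The 3 values thus spanned 2.94 log2 units. Among the 322 genes with at least 2 tested probes the median span in this comparison was 0.37, and 6 genes had a wider one. Of the 195 genes with 3 tested probes, 5 did. In hESC the OTX2 span rests on small counts, 6 to 10 reads a library at probe 948 and 2 to 9 at probe 949.

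Endoderm against hESC gave a larger OTX2 difference, a log2 fold change of 5.66 ± 0.10 (SE), 1530 against 32.9 CPM. Its probes gave 6.43 ± 0.21, 5.16 ± 0.27 and 5.21 ± 0.13, in the order 948, 949 and 950. They spanned 1.27 log2 units, and 43 of the 322 genes spanned more. Probe 948 was the most raised of the 3 in this comparison too.

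Between the 2 directed cultures, endoderm stood 1.72 ± 0.08 (SE) above ectoderm on the log2 scale. The difference was 0.64 ± 0.14 at probe 948, from 434 against 251 CPM. At probe 949 it was 2.30 ± 0.20 (110 against 19.9 CPM) and at probe 950 2.36 ± 0.11 (986 against 173 CPM). The span of 1.71 was exceeded by 32 of the 322 genes. All 3 probes placed endoderm above ectoderm under every scaling tried, but at probe 948 the difference shrank to 0.24 with library totals alone and to 0.10 with reference genes.

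Mesoderm was the only directed culture with less OTX2 than the stem cells it came from. The log2 fold change was -1.27 ± 0.13 (SE), 14 against 32.9 CPM, and -0.61 when reference genes set the scale. The probes, fitted separately from the sum with their own scaling factors, gave -1.49 ± 0.36, -1.67 ± 0.50 and -1.44 ± 0.15 (SE). Their span of 0.23 was exceeded by 230 of the 322 genes. The 3 estimates lay close together, but the SEs at probes 948 and 949 exceeded that span. Mesoderm libraries held 2 to 8 reads of probe 948 and 2 to 4 of probe 949.

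Between the embryoid body arms OTX2 was higher in CEPT EB by a log2 fold change of 1.08 ± 0.24 (SE), 85.4 against 39.7 CPM. The probe values were 1.21, 1.21 and 0.92, a span of 0.29 against a median of 0.24 over 311 genes. Without the 2 lowest libraries, replicate 13 of CEPT EB and replicate 15 of Y27 EB, the summed value was 0.91.

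**Figure D3:**
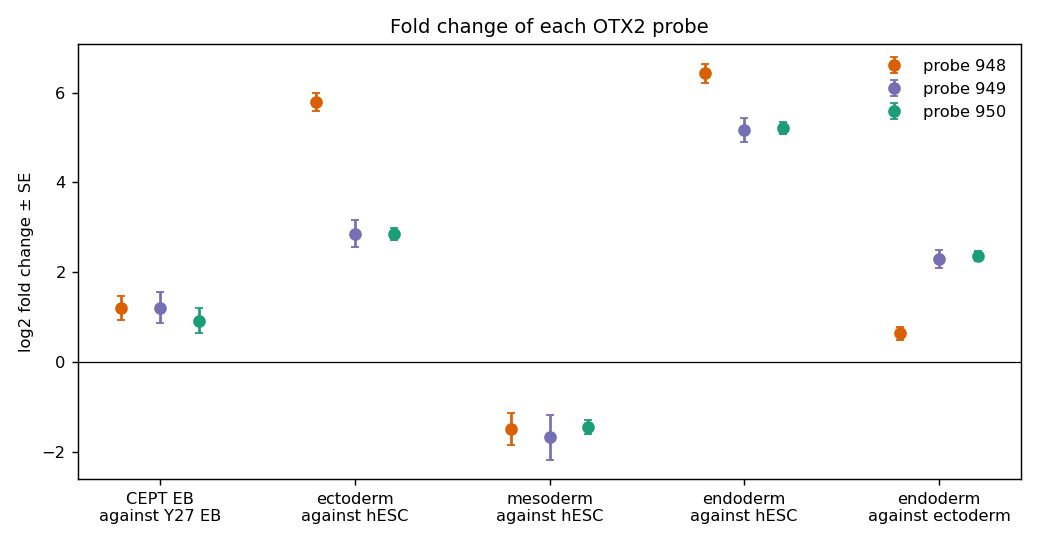
Log2 fold change of each OTX2 probe in 5 comparisons, with standard errors from the fit. The 3 probes lie together in the embryoid body and mesoderm comparisons. Probe 948 lies 2.94 log2 units above the lowest probe in ectoderm against hESC and 1.71 below the highest in endoderm against ectoderm.

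Genes known to work with, against or beside OTX2 were followed through lists of regional and lineage genes. The lists were chosen with earlier results of these data known. A gene counts as called where at least 1 of its probes passed an adjusted p of 0.05 and no probe passed in the other direction. In ectoderm against hESC 45.0% of all 382 tested genes were called higher and 40.3% lower, so most of the panel differed. Counted by probe, 81.7% were called in either direction there, 77.5% in mesoderm and 78.2% in endoderm against hESC, 79.7% in endoderm against ectoderm and 23.6% between the embryoid body arms. Of 9 tested forebrain and midbrain genes 6 rose, 0 fell and 3 (HESX1, NKX2-1 and ZIC2) did not pass. The median log2 fold change over their probes was 3.10, against 0.14 over all probes.

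Among those 6, PAX6, a regulator of forebrain and eye, went from 0.282 ± 0.563 to 915 ± 84.9 CPM at probe 543 (SD, n = 4 each; adjusted p = 1.51e-15). SIX3, a forebrain and eye regulator, rose by 2.84 and 2.35 log2 units at its 2 probes (adjusted p = 2.07e-13 and 1.96e-09). LMX1A, a factor of the roof plate and ventral midbrain, had 0 reads in every hESC library and 128 ± 15.4 CPM in ectoderm at probe 1123, at least 79.4-fold higher against a floor of 3 reads per library. FEZF1 rose from 1.37 to 1124 CPM at probe 871 (adjusted p = 7.85e-17). SOX2, listed with the pluripotency genes and shared by pluripotent and neural progenitor cells, rose by 2.63 at probe 695 (adjusted p = 3.92e-12).

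GBX2, the gene that borders OTX2 in the embryo, went the other way. It averaged 975 CPM in hESC and 64.3 in ectoderm, summed over its probes. The log2 fold changes were -3.96, -3.86 and -3.73 at probes 308, 884 and 885 (adjusted p up to 7.26e-10). Of the 6 tested hindbrain and posterior genes 2 rose (NR2F1 and NR2F2) and 3 fell (CYP26A1, GBX2 and OLIG2).

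In endoderm against hESC the background was 42.7% of genes called higher and 43.5% lower. All 13 tested anterior endoderm genes rose, with a median of 7.29 over their probes against 0.00 over all probes. This list holds definitive endoderm regulators, nodal pathway members and anterior signals. Many are markers of the fate this culture was made for, so their rise is a check of that fate. SOX17, a definitive endoderm regulator, had 0 reads in every hESC library and 2127 ± 343 CPM at probe 692 (SD, n = 4), at least 1319-fold higher. HHEX, a regulator of anterior endoderm, rose by 3.10, 3.01 and 2.84 at its 3 probes (adjusted p up to 1.31e-12). LHX1, a head organizer factor, rose by 8.02 at probe 432 (adjusted p = 5.3e-14), and FOXA2, an endoderm pioneer factor, by 6.67 (adjusted p = 1.23e-12).

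The same 9 forebrain and midbrain genes were not all silent in endoderm. Of these 6 rose against hESC, 2 fell (FEZF1 and ZIC1) and 1 did not pass (EMX2), with a median of 0.56. EMX2 had 0 reads in every endoderm library, and FEZF1 averaged 0.0972 CPM there. PAX6 reached 175 ± 17 CPM at probe 543 (SD, n = 4; adjusted p = 1.22e-13), and LMX1A 310 ± 21.9 CPM at probe 1123, at least 192-fold above hESC. SIX3 rose by 1.73 and 1.57 (adjusted p = 5.56e-10 and 3.46e-07). NKX2-1, a forebrain and foregut regulator, went from 0.13 to 40.3 CPM at probe 937 (adjusted p = 3.93e-09). GBX2 fell below 3 CPM at all 3 probes (log2 fold changes -7.72, -7.00 and -6.39), and SOX2 had log2 fold changes of -7.66, -7.61 and -7.31. Of the 6 tested hindbrain and posterior genes 3 rose (CYP26A1, NR2F1 and NR2F2), 2 fell (GBX2 and OLIG2) and 1 did not pass (CDX2). CYP26A1 went from 297 to 21424 CPM, summed over its probes.

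In endoderm against ectoderm 41.4% of all genes were called higher and 43.5% lower. All 13 genes of the anterior endoderm list, which holds markers of that culture's fate, were higher in endoderm. Of the 9 forebrain and midbrain genes 4 (44.4%) were higher in endoderm (HESX1, LMX1A, NKX2-1 and ZIC2). The other 5 (55.6%) were higher in ectoderm (EMX2, FEZF1, PAX6, SIX3 and ZIC1), a split near that over all genes. FEZF1 had 0 reads of probe 870 in every endoderm library and 1282 ± 124 CPM in ectoderm (SD, n = 4), at least 990-fold higher in ectoderm. LHX1 had 0 reads of probe 433 in every ectoderm library and 407 ± 21.9 CPM in endoderm (SD, n = 4), at least 358-fold higher in endoderm. GBX2 was lower in endoderm than in ectoderm at its 3 probes (-3.86, -3.27 and -2.43; adjusted p up to 0.000226).

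**Figure D4:**
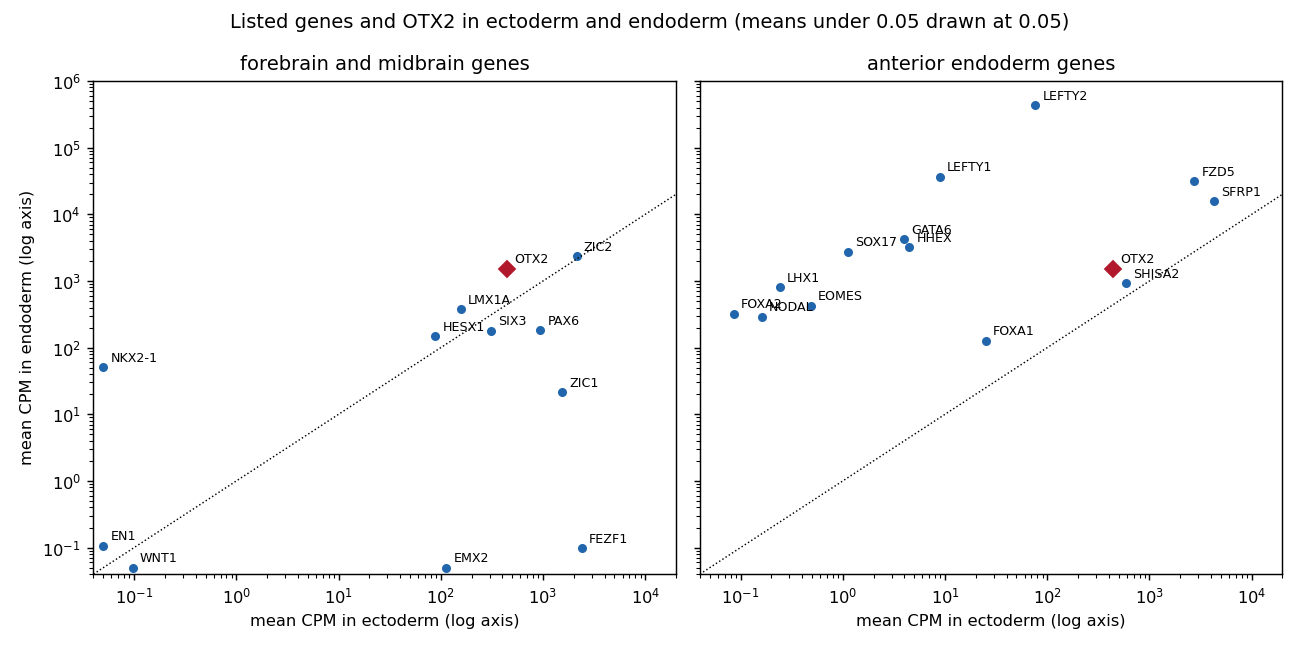
Mean CPM in ectoderm and in endoderm of the forebrain and midbrain genes (left) and the anterior endoderm genes (right) on the panel, probes summed per gene, on log axes; the red diamond is OTX2 and the dotted line is equality. All 13 anterior endoderm genes lie above the line, the forebrain and midbrain genes lie on both sides, and OTX2 lies above it at 1530 against 444 CPM.

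In mesoderm against hESC 35.6% of genes were called higher and 49.0% lower. Of the 9 forebrain and midbrain genes 0 rose and 5 fell, and of the 13 anterior endoderm genes 2 rose (GATA6 and LHX1) and 8 fell. SIX3 fell from 33.6 ± 4.69 CPM to 0 reads in every library at probe 645 (SD, n = 4), at least 29.6-fold lower. HHEX had log2 fold changes of -6.24, -5.69 and -5.60 at its probes, and SOX2 of -9.79, -9.03 and -8.58. CDX2, a posterior regulator, had 0 reads in every hESC library and 903 ± 51.1 CPM in mesoderm at probe 108 (SD, n = 4), at least 560-fold higher. GBX2 stayed high, 841 against 975 CPM summed. It was called lower at probes 884 (-0.38, adjusted p = 0.00247) and 885 (-0.54, adjusted p = 0.00941), but with reference gene scaling probe 884 was higher (0.49) and called. Both calls were lost with library totals alone (adjusted p = 0.676 and 0.271) and without mesoderm replicate 2, 3 or 4 (adjusted p from 0.0835 to 0.124 at probe 884 and from 0.051 to 0.144 at probe 885).

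Between the embryoid body arms 14.2% of 373 genes were called higher in CEPT EB and 18.0% lower. None of the 7 tested forebrain and midbrain genes was called by edgeR, with a median of 0.30 against -0.04 over all probes; 2 of them (LMX1A and SIX3) had an unadjusted p under 0.05, and DESeq2 called the same 2. SIX3 gave a log2 fold change of 1.04 at probe 645 (6.57 against 3.15 CPM, adjusted p = 0.0576). It was called with median-ratio scaling (adjusted p = 0.0412), with DESeq2 (0.0128) and without the 2 lowest libraries (0.038). PAX6 gave 0.82 (18.0 against 9.84 CPM, adjusted p = 0.189). GBX2 gave -0.21 to -0.11 at its 3 probes, none called.

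Of 9 tested anterior endoderm genes 2 were higher in CEPT EB (FZD5 and LHX1), 1 was lower (SFRP1) and 6 did not pass. FZD5, a WNT receptor, differed by 0.87 (51.7 ± 27.3 against 28.1 ± 10.9 CPM, SD, n = 16 each; adjusted p = 0.00193), though with library totals alone it was not called (adjusted p = 0.0616). LHX1 differed by 1.34, from 4.82 against 2.18 CPM (adjusted p = 0.0445), a call lost when any 1 of 21 of the 32 libraries was left out and with library totals alone (adjusted p = 0.0945). HHEX gave 1.66, 1.33 and 0.78, none called, though probe 1119 was called without the 2 lowest libraries (1.81, adjusted p = 0.0424), without CEPT EB replicate 13 (0.0489) and without Y27 EB replicate 11 (0.0422). Some genes of both lists were low in the embryoid bodies: SOX17 averaged 8.32 CPM in CEPT EB and LMX1A 5.56. Others were not: SFRP1 averaged 1691 CPM in CEPT EB and ZIC2 212.

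Some markers of other cell types were also called between the arms. Of 7 tested neural crest genes 0 were higher in CEPT EB and 4 (57.1%) lower (FOXD3, PAX3, SNAI2 and SOX10). Over all genes 18.0% were lower. SOX10, a neural crest and glial regulator, fell by 0.66 at probe 685 (85.6 ± 16.2 against 134 ± 25.7 CPM, SD, n = 16 each; adjusted p = 6.73e-06). Of 13 neuronal genes 2 (15.4%) were higher (SLC17A6 and SST) and 3 (23.1%) lower (NCAM1, NEUROD1 and SYP). These shares were near the 14.2% and 18.0% over all genes. DESeq2 called only NEUROD1, SLC17A6 and SST of the neuronal genes. SLC17A6, a vesicular glutamate transporter, differed by 0.94 (adjusted p = 0.00391), and with library totals alone neither it (0.60, adjusted p = 0.0793) nor SST (0.37, adjusted p = 0.12) was called. Summed over the 7 neural crest genes on the panel, the level ran from 3571 to 5246 CPM in CEPT EB and from 4059 to 6930 CPM in Y27 EB. Over the 15 neuronal genes it ran from 14273 to 39021 CPM and from 17235 to 29885 CPM, so both lists overlapped between the arms. Their part in the OTX2 difference was not tested.

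Over the 6 group means of log2 CPM, 5 of 389 genes followed OTX2 with a Pearson r above 0.9, a description over 6 points that share libraries and scaling. LMX1A was nearest (r = 0.98), with 378 CPM in endoderm, 156 in ectoderm and, in the embryoid bodies, 5.56 (CEPT) and 2.34 (Y27). BBC3, which encodes the pro-apoptotic protein PUMA, came next (r = 0.93), with 467 CPM in endoderm, 276 in ectoderm and 107 in mesoderm. The others were RALB, a small GTPase (r = 0.92), FZD5 (r = 0.91) and TPM1, a tropomyosin (r = 0.91). FZD5 ran from 12.7 CPM in mesoderm to 31136 in endoderm. TPM1 was higher in ectoderm (7621 CPM) than in endoderm (5712), unlike OTX2. None of these 5 genes had TAATCC in the RefSeq promoter windows read, 2 for LMX1A and 1 for each of the others. Only 5.6% of all promoter windows hold that motif, so its absence from so few says nothing of OTX2 binding.

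OTX2 levels differed between libraries of the same arm. The coefficient of variation was 36.4% in CEPT EB, above that of 68.5% of the 333 genes with a mean of at least 50 reads. In Y27 EB it was 56.1%, above that of 88.3% of 334 genes, and 50.4% without replicate 15. The highest CEPT EB libraries were replicates 13 (159 CPM) and 4 (157 CPM), and the others ran up to 108 CPM. In Y27 EB replicates 3 (89.2 CPM) and 7 (78.5 CPM) were highest and replicates 15 (6.44 CPM) and 12 (10.9 CPM) lowest.

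The probes followed each other between libraries to a different degree in the 2 arms. In Y27 EB, Pearson's r of log2 CPM was 0.68 for probes 948 and 949 and 0.70 for 949 and 950 (permutation p = 0.00239 and 0.0027, adjusted over 6 pairs 0.0081 each). Spearman's rho was 0.66 and 0.53 (permutation p = 0.00646 and 0.036). Without the 2 libraries farthest from the median of the first probe r was 0.73 and 0.48, and without replicate 15 alone the second pair was no longer called (r = 0.46, adjusted p = 0.14). Probes 948 and 950, both labelled to the same RefSeq transcript, gave r = 0.50 (permutation p = 0.0494, adjusted p = 0.0988). In CEPT EB the 3 pairs gave r from 0.34 to 0.44 and none was called (adjusted p from 0.14 to 0.19). Whether the arms differ in this was not tested.

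**Figure D5:**
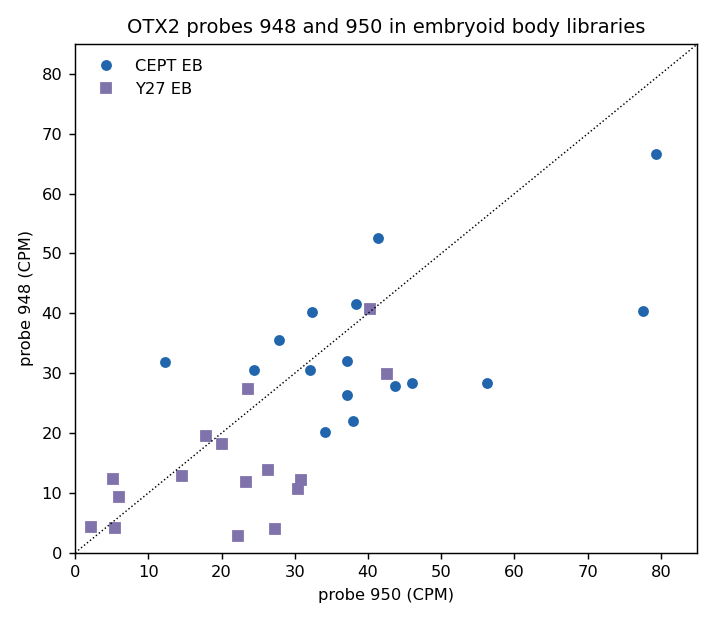
Probe 948 against probe 950 in the 32 embryoid body libraries, in CPM; points are libraries and the dotted line is equality. Libraries lie on both sides of the line in both arms, with probe 948 the higher in 6 of 16 CEPT EB and 6 of 16 Y27 EB libraries. The Y27 EB count includes replicate 15, with 2 reads against 1, and replicate 3, with 204 against 202.

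Across libraries of an arm, OTX2 was set against each of 381 other genes. In CEPT EB 2 genes (0.525%) were called, both falling where OTX2 was higher; they fall outside the rule for named genes and are named after their values were seen. These were TM4SF1, a transmembrane surface protein (r = -0.89, rho = -0.78), and PLVAP, an endothelial protein (r = -0.86, rho = -0.47), each with a permutation test and adjusted p = 0.0457. Without the 2 libraries farthest in OTX2 their r was -0.56 and -0.49, and no gene was called when replicate 13, or any of 11 others of the 16, was left out. In Y27 EB their r was -0.16 and 0.07. No gene (0.0%) was called there by the permutation test (lowest adjusted p = 0.0895), while 35 had an unadjusted p under 0.05, against 72 in CEPT EB.

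OTX2 also moved with the library total in CEPT EB (r = -0.69, permutation p = 0.00455; rho = -0.67, p = 0.00533), and r was -0.40 without the 2 libraries of the most extreme total. In Y27 EB r was 0.63 (permutation p = 0.029; rho = 0.27, p = 0.313) and -0.02 without the 2 most extreme totals, so that relation rests on those libraries. Taking residuals on the library total gave 5 called genes in CEPT EB in place of 2. A count of calls does not show whether a given relation holds apart from depth, so the part of depth was not tested.

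By likeness in both arms, the genes nearest OTX2 were GAP43, VASH2, PDGFRB, ISL1 and FUT8, and the most opposed were CPE, ROR2 and PODXL. GAP43, a growth cone protein, gave r = 0.65 in CEPT EB and 0.51 in Y27 EB (permutation test, adjusted p = 0.103 and 0.523). CPE, a peptide-processing enzyme of secretory granules, gave -0.72 and -0.51 (adjusted p = 0.0648 and 0.523). Without the 2 libraries farthest in OTX2, r was 0.43 and 0.23 for GAP43 and -0.44 and -0.39 for CPE. None of the 8 was called in either arm. Over genes, the 2 arms' r values correlated at 0.22, a figure across genes, which are not independent.

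No gene of the lists was called in either arm by the permutation test, while 16 of 60 had an unadjusted p under 0.05 in CEPT EB and 7 in Y27 EB. Across the whole set of 381 genes, r had a median of -0.10 after CEPT and -0.02 after Y-27632. Forebrain and midbrain genes had r above 0 for 1 of 7 in CEPT EB (median -0.45) and for 6 of 7 in Y27 EB (median 0.21). Without the 2 libraries farthest in OTX2 these became 4 of 7 (median 0.02) and 2 of 7 (median -0.17), so both patterns rest on those libraries. SIX3 gave r = -0.15 and 0.50 in the 2 arms, and PAX6 -0.40 and 0.22. Anterior endoderm genes had a median of -0.30 in CEPT EB and -0.09 in Y27 EB, with HHEX at -0.71 and -0.14. Without the 2 farthest libraries the medians were -0.11 and 0.18, and HHEX stood at -0.40 and 0.29. Neuronal genes had medians of 0.26 and 0.22, with r above 0 for 9 and 11 of 13, and without the 2 farthest libraries medians of 0.01 and 0.10.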

How the data were processed

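RNA of 48 libraries was captured by its poly(A) tail and read by RASL-Seq, in which paired probes are ligated on their target, amplified and sequenced. The deposited values are raw counts of reads per probe, made by the authors with a custom aligner, per the series' design text. The submitters' processing notes name hg38 and DESeq2 with no role or version. The merged table equalled the sample tables (0 differing cells), and 16 of its columns, which match no sample label, were not used. Depth ran from 379810 to 5577868 reads a library, which limits OTX2 in mesoderm to 28 to 43 reads. The members and the gene lists were chosen with earlier results of these data known.

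Counts were fitted with edgeR 4.0.16 (R 4.3.3; robust quasi-likelihood test, TMM scaling, filterByExpr, Benjamini-Hochberg adjustment, threshold 0.05), in 1 fit of the 32 embryoid body libraries (867 probes) and 1 of the 16 others (903 probes). All 3 OTX2 probes passed the filter in both. Counts summed per gene were fitted separately in the same way, with their own scaling factors, and gave the summed OTX2 fold changes. OTX2's fold changes carry the SE of their fit and no p. Levels are CPM with TMM factors over all 48 libraries. Correlations use log2 CPM (prior count 2) and 100000 permutations, two-sided. Genes were named by rule: GBX2, LHX1, SIX3, FOXA2, HHEX, SOX2 and PAX6 wherever tested, and up to 4 genes per comparison and list with the largest change among called genes with a mean of at least 50 reads. OTX1, CRX, GSC and CER1, and all genes of a retina, choroid plexus and pineal list, are not on the panel. Levels of other listed genes are given only to check fates. A gene of the forebrain and midbrain list is not reported here and is left out of its counts. In data simulated for CEPT EB against Y27 EB, 84.5% of 193 changed probes of 845 were called, and 4.12% of calls were false. For endoderm against ectoderm 81.8% of 198 changed probes of 876 were called, and 5.26% of calls were false. In the real comparison 79.7% of probes were called, far more than were changed in that simulation. It therefore does not show how the calls behave under so broad a difference. Within groups, every pair of libraries differed by more than sampling noise (chi-square over its degrees of freedom 4.93 or more). The alternatives were other scalings, other filters, DESeq2 1.42.0, a replicate block, probes summed per gene and each library left out.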

Additional observations from a re-analysis of the deposited data

Results flagged for a closer look

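Replicate 3 of ectoderm stood apart from the other 3 libraries of its group in OTX2, at 483 CPM where they gave 429, 431 and 431. At probe 948 alone it gave 303 CPM where they gave 237, 235 and 228. At probe 950 it was the lowest of the 4, with 167 CPM where they gave 170, 176 and 180. The summed level and probe 948 are the only 2 such cases among 28 combinations of a group of 4 libraries and an OTX2 measure (7.14%), and chance marks about 5%. The endoderm library of the same number also had the highest probe 948 share of its group, 32.1% where the others gave 28.2, 27.8 and 25.8%. Without this ectoderm library the ectoderm share of probe 948 averaged 54.2% in place of 56.3%.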

How the results depend on the processing

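The direction of OTX2's difference was the same under every alternative run in each of the 5 comparisons. Leaving out each library gave OTX2 log2 fold changes of 0.97 to 1.20 for CEPT EB against Y27 EB, 3.74 to 4.02 for ectoderm, -1.39 to -1.15 for mesoderm and 5.42 to 5.77 for endoderm against hESC, and 1.65 to 1.77 for endoderm against ectoderm. Reference gene scaling gave 5.37, -0.61, 6.45 and 1.08 in the last 4, library totals alone 5.17 for endoderm against hESC and 1.23 for endoderm against ectoderm, and upper-quartile scaling 5.21 and 1.37. A minimum of 10 reads in every library gave -1.49 for mesoderm and 1.58 for endoderm against ectoderm, and in the embryoid bodies it removed the OTX2 probes, so no value exists there. Group levels moved by more than 1 SD in ectoderm (475 CPM by median ratio, 587 by reference genes), mesoderm (12.1 by median ratio, 12.7 by upper quartile, 12.3 by totals, 9.23 by reference genes), endoderm (1257 by upper quartile, 986 by totals, 1242 by reference genes) and hESC (14.1 by reference genes).

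Probes called between the embryoid body arms numbered 205 (92 higher, 113 lower), 339 with library totals alone (48 higher, 291 lower; median over all probes -0.36) and 182 by median ratio (107 higher, 75 lower); DESeq2 gave 121 higher and 79 lower. Summed per gene, 112 genes were called there and 333, 316, 331 and 335 in ectoderm, mesoderm and endoderm against hESC and endoderm against ectoderm, where probes numbered 738, 700, 706 and 720. The filter of 10 reads tested fewer probes and called 426, 395, 400 and 411 of them, with 16, 16, 16 and 14 list genes. Reference gene scaling shifted the median of all probes by 1.69, 0.66, 0.99 and -0.52 in these 4 and gave 614 higher and 155 lower, 499 and 209, 536 and 207, and 262 and 462. A further 3 values changed sign: with reference gene scaling GBX2 probes 884 (0.49) and 885 (0.33) in mesoderm against hESC, and with library totals alone LIN28B probe 439 between the arms (-0.12). In the arms ISL1 probe 395, SOX2 probe 695 and SYP probe 715 lost their call under 5 alternatives each. Of 1409 values of named and listed genes under these alternatives, 1343 kept their direction and call or stayed within their spread. The cause was not tested.

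Genes correlated with OTX2 in CEPT EB numbered 81 with library totals alone, 0 with at least 10 reads, 5 on residuals and 0 to 42 leaving out each library; in Y27 EB they numbered 0 to 1. Leaving out each library, the Y27 EB pair 948 and 950 ran from 0.39 to 0.61 and the pair 949 and 950 from 0.46 to 0.81. The labels do not say that a replicate number marks a shared source, and no pair of groups had every same-numbered correlation over 0.1. Between the arms 3 of 16 were over 0.1 (lowest -0.27). Ectoderm and mesoderm had 3 of 4 (mean 0.26, against -0.08 for other numbers), ectoderm and endoderm 3 of 4 (0.21 against -0.07, each library correlating best with its own number) and mesoderm and endoderm 2 of 4 (0.18 against -0.06), which is a hint from the data, not the design. With the replicate block 167 probes were called between the arms (68 higher, 99 lower) and OTX2 stood at 1.22; the block called 752, 724, 720 and 735 probes in the others.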
